A study of Mus musculus with 6 samples.

Results

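Transcripts for glycerolipid and phosphatidylcholine synthesis were examined in mouse liver after 12 weeks on a high-fat diet of Western style, against a low-fat diet of the same length. The set holds 9 genes: Gpd1, Gpam, Agpat2, Lpin1 and Dgat1 of the route that runs from glycerol-3-phosphate to triglyceride, and Chka, Chkb, Pcyt1a and Pemt of the routes to phosphatidylcholine. A probe set, the group of short probes that reads 1 transcript on an Affymetrix array, was taken when its only gene symbol in the platform annotation was one of these. By this rule 7 of the 9 genes were measured, through 10 of the 12488 probe sets of the series. Agpat2 and Chkb had 0 single-gene probe sets and are not analysed here, and for Chkb the annotation lists 2 probe sets that carry a further symbol. The mice were C57BL/6, a common inbred laboratory strain, and no engineered allele is named for these animals, although the keywords of the records also mention deficiency of the LDL receptor. There were 3 high-fat arrays and 3 low-fat arrays of total liver RNA. Whether an array holds 1 mouse or a pool, and the composition of the diets, the sex and age of the mice and the hour of tissue collection, are not stated in the labels, so p-values measure the spread between these arrays, which may be technical.

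As background, the cytosolic enzyme encoded by Gpd1 interconverts dihydroxyacetone phosphate and glycerol-3-phosphate, the backbone of glycerolipids. Gpam adds the first acyl chain at the mitochondrial surface, Agpat2 adds the second, lipin 1 removes the phosphate from phosphatidic acid to give diacylglycerol, and Dgat1 adds the last acyl chain of triglyceride. Diacylglycerol is also the acceptor in the CDP-choline route, in which choline kinases (Chka, Chkb) phosphorylate choline and Pcyt1a, usually described as the rate-limiting enzyme, makes CDP-choline. The liver has a further route in which Pemt methylates phosphatidylethanolamine to phosphatidylcholine. Phosphatidylcholine coats lipid droplets and secreted lipoproteins, and lipin 1 also acts in the nucleus as a coactivator in the control of fatty acid oxidation genes.

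Promoter sequences are shown for Chka, Lpin1 and Pcyt1a, whose arrays did not overlap between the diets and which are in the RefSeq promoter table of mouse build GRCm38.p6. Each covers 250 bases before to 50 bases after an annotated transcript start, 5′ to 3′ along the transcript. The Chka window is chr19:3851523-3851822 on the plus strand, that of Lpin1 is chr12:16610917-16611216 on the minus strand and lies inside the annotated span of the gene, and that of Pcyt1a, the first of 3 listed, is chr16:32430671-32430970 on the plus strand. Capitals mark matches, on either strand, to the motifs named after the sequences.
Chka: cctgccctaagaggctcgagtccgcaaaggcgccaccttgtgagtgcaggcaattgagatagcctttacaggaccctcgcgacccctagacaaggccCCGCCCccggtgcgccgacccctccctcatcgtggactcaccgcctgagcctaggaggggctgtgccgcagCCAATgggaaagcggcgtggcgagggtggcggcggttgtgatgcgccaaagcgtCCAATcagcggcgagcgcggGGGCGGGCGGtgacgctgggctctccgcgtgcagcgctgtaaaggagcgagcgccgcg
Lpin1: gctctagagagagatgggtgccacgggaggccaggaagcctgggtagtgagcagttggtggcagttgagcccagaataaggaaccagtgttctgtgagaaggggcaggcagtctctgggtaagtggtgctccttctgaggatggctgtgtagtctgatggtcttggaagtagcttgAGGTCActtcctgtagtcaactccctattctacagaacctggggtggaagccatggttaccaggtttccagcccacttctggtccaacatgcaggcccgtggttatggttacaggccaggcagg
Pcyt1a: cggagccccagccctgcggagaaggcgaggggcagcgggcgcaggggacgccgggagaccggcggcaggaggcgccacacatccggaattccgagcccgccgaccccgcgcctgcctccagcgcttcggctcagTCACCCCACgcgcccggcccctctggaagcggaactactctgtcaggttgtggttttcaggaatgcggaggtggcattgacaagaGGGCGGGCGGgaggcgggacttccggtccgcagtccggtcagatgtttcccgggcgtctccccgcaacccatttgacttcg

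The Chka window held 3 GC boxes (GGGCGG, 2 of which overlap) and 2 CCAAT boxes, and 68.7% of its bases were G or C. The Pcyt1a window held 2 overlapping GC boxes and 1 match to the core of the sterol regulatory element (TCACNCCAC). The Lpin1 window was less rich in G and C, at 55.3%, and held 1 nuclear receptor half-site (AGGTCA) and 0 GC boxes. Of all 32851 promoter windows in the table, 35.7% held a GC box, 37.4% a CCAAT box, 16.3% the half-site and 1.24% the sterol element core. The E-box (CACGTG), the D-box (TTANGTAA) and the TATA box (TATAAA), held by 7.15%, 2.32% and 13.6% of all windows, had 0 matches in these 3 windows. These matches describe the letters in the windows only.

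The deposited values were linear intensities, and a mean trimmed by 2% of probe sets at either end came to 500.4 on every array. Values below 68.9, the pooled 30th percentile, were raised to that floor before log2 was taken, and all 10 member probe sets passed the filter of at least 3 arrays above it. The 10 hepatocyte markers summed to between 177000 and 222600 on the high-fat arrays and between 174900 and 227900 on the low-fat arrays. Of the 10, 0 passed limma's test, 6 were above 0, and 1, Tat, did not overlap between the diets. Tat read 13796.7, 9815.4 and 10582.1 on the high-fat arrays against 18010.4, 19399.7 and 21257.6 on the low-fat arrays. Its log2 difference was -0.79 (adjusted p = 0.0742 in limma). Transcripts of pancreatic acinar cells were present, at summed intensities of 4581, 12920 and 2343 for 8 markers on high-fat arrays 1, 2 and 3 and of 3488, 7472 and 2437 on low-fat arrays 1, 2 and 3. Both arrays numbered 2 were the highest of their diet in that sum, and the muscle marker Acta1 read 1770.6 on high-fat array 2 against at most 60.0 on the other arrays. Results are therefore also given without those arrays.

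Among the 7 measured genes, Gpd1 and Chka rose on the high-fat diet, Lpin1 fell, and 4 did not pass an adjusted p of 0.05 (limma with Benjamini-Hochberg adjustment over all 8950 tested probe sets). Of all 8950 probe sets 0.827% passed, and with the brightest probe set standing for each of 6557 genes 0.915% passed, 0.458% higher and 0.458% lower. The median log2 change of the 7 genes was 0.23, beside 0.0077 over all tested genes, and 4 of the 7 were above 0, beside 51.3% of all genes. An unadjusted p under 0.05 was reached by 5 of the 7, beside 9.5% of all genes. For 4 of the 7 the diets did not overlap, beside 14.5% of all genes. The members were chosen with earlier results of these data known, so these shares describe the set and do not test it. In bulk liver RNA, fewer cells of a type and less RNA per cell cannot be told apart.

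**Figure D1:**
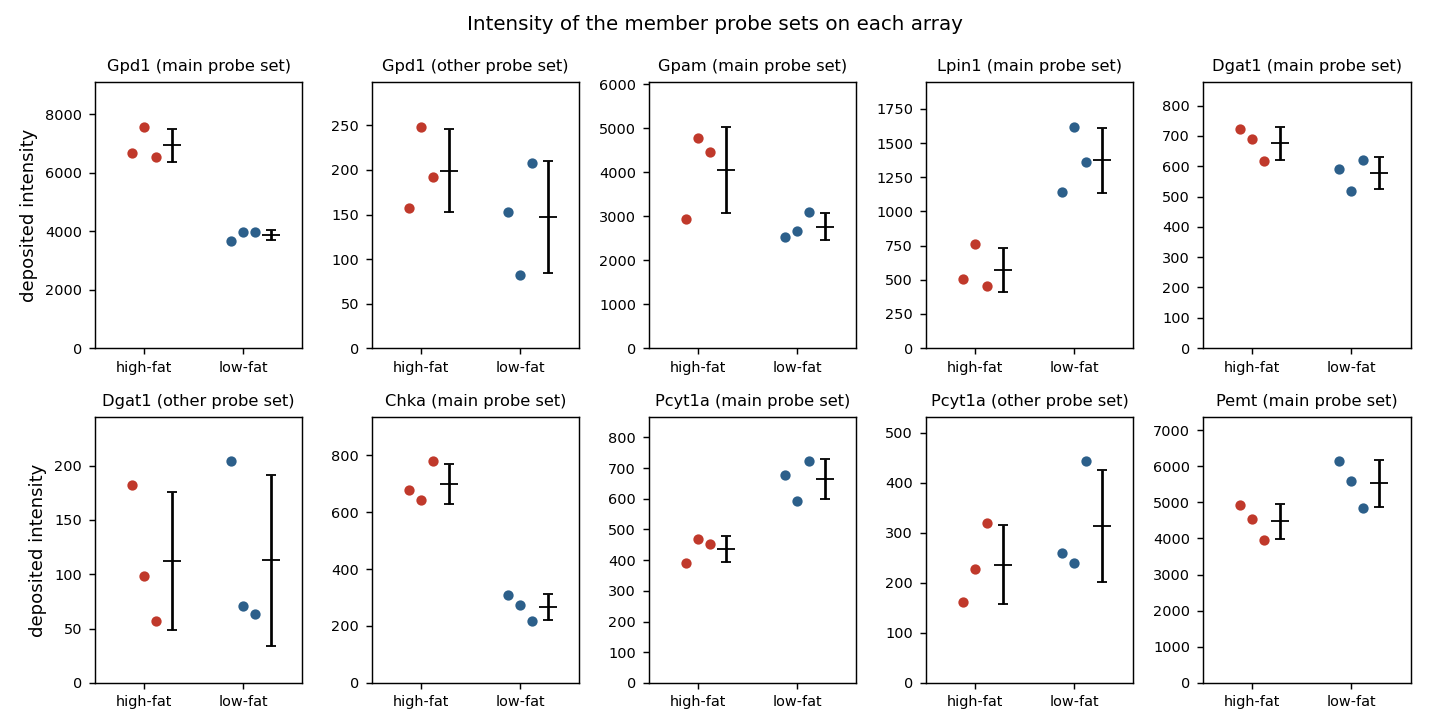
Deposited intensity (vertical axes, each starting at 0) of the 10 member probe sets, with 1 point for each of the 3 high-fat arrays (red, left) and 3 low-fat arrays (blue, right). Bars show the mean and SD of 3 arrays, and the diets do not overlap in the main probe sets of Gpd1, Lpin1, Chka and Pcyt1a.

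On the glycerolipid route, the transcript of the first enzyme was higher and that of the phosphatase lower. Gpd1 read 6684.7, 7572.9 and 6549.6 on the high-fat arrays, against 3671.2, 3973.3 and 3976.2 on the low-fat arrays. All high-fat arrays were above all low-fat arrays, and the spread within a diet was narrow, with coefficients of variation of 8.02% (high-fat) and 4.52% (low-fat). High-fat arrays averaged 6936 ± 556 and low-fat arrays 3874 ± 175 (SD, n = 3 each). On the log2 scale Gpd1 rose by 0.84 ± 0.11 (SE; adjusted p = 0.0135 in limma), a fitted fold of 1.79. Gpd1 ranked 218 of 6557 genes by size of change and 22 by p.

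A second Gpd1 probe set, much dimmer and marked by its suffix as possibly shared within a gene family, read 157.0, 248.7 and 192.5 on the high-fat and 153.2, 82.4 and 207.6 on the low-fat arrays. The diets overlapped there, and the log2 change of 0.51 had an adjusted p of 0.782 in limma. With the mean of both probe sets standing for the gene, the change of Gpd1 was 0.67 with an adjusted p of 0.237 in limma, so its call rests on the brighter probe set. Gpd1 is also abundant in fat tissue. The 6 measured adipocyte markers summed to 1537 to 1865 on the high-fat arrays and 1154 to 1810 on the low-fat arrays. Of the 5 tested, 0 were called, and Retn lay under the floor on all 6 arrays. Most of the sum came from Lep, the brightest marker. The other 5 summed to 560.3 to 814.6 on the high-fat and 589.3 to 691.4 on the low-fat arrays. The adipocyte hormone gene Adipoq read 92.5, 200.4 and 48.3 on the high-fat arrays against 59.4, 109.5 and 85.9 on the low-fat arrays, close to the floor and overlapping. Of the 6 markers 2 did not overlap, in opposite directions and without passing: the fatty acid carrier gene Fabp4 had a log2 difference of 0.60 (adjusted p = 0.611 in limma), and the hormone-sensitive lipase gene Lipe one of -0.36 (adjusted p = 0.718 in limma). The part of adipocyte RNA in the Gpd1 result was not tested.

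Gpam, the acyltransferase that starts glycerolipid assembly, read 2925.2, 4770.5 and 4455.2 on the high-fat arrays, against 2516.4, 2658.2 and 3100.1 on the low-fat arrays. High-fat arrays 2 and 3 lay above all low-fat arrays, and high-fat array 1 lay among them. The averages were 4050 ± 987 for high-fat and 2758 ± 304 for low-fat arrays (SD, n = 3 each), a log2 difference of 0.53 ± 0.19 (SE) that did not pass (adjusted p = 0.403 in limma). With each array left out in turn the difference ranged from 0.394 without high-fat array 2 (adjusted p = 0.748) to 0.747 without high-fat array 1 (adjusted p = 0.0632), and Gpam passed in 0 of these 6 fits in limma.

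Lpin1 read 507.4, 758.5 and 455.3 on the high-fat arrays, against 1138.8, 1620.6 and 1358.7 on the low-fat arrays. The diets did not overlap, and array 2 was the highest of each diet. High-fat arrays averaged 574 ± 162 and low-fat arrays 1373 ± 241 (SD, n = 3 each). The log2 change was -1.28 ± 0.21 (SE), its 95% interval ran from -1.77 to -0.79, and the adjusted p was 0.0325 in limma. Lpin1 was the only member to fall past the threshold, and its change was larger than that of 99.1% of tested genes. Lpin2, a related phosphatase gene named after its values were seen, stood at a log2 difference of -0.12 (adjusted p = 0.924 in limma), which turned to 0.051 without high-fat array 3, so of the 2 tested lipin genes 1 was called.

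The transcript of Dgat1, which encodes an acyltransferase of the last step, read 721.2, 691.2 and 615.5 on the high-fat arrays and 591.8, 519.4 and 620.0 on the low-fat arrays. High-fat array 3 lay just under low-fat array 3, so the diets overlapped. The log2 difference was 0.23 ± 0.15 (SE), with a 95% interval from -0.11 to 0.57 and an adjusted p of 0.756 in limma. That interval reaches past the log2 difference of 0.53 measured for Gpam. The second Dgat1 probe set was dim, above the floor on 4 of the 6 arrays, and marked as possibly shared within a gene family. Its 2 highest readings were 182.1 on high-fat array 1 and 203.9 on low-fat array 1. The array numbered 1 was thus the highest of each diet. The log2 difference of this probe set was 0.10, and its sign turned with arrays left out, from -0.275 to 0.621.

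On the CDP-choline route, the choline kinase transcript was higher while the transcript of the next enzyme stood lower. Chka read 679.3, 641.1 and 778.2 on the high-fat arrays, against 307.8, 274.3 and 217.0 on the low-fat arrays. The lowest high-fat array was above the highest low-fat array by more than the whole range of either diet. The averages were 699.5 ± 70.8 for high-fat and 266.4 ± 45.9 for low-fat arrays (SD, n = 3 each). Chka rose by 1.40 ± 0.20 on the log2 scale (SE), a fitted fold of 2.64, with a 95% interval from 0.96 to 1.85 and an adjusted p of 0.0157 in limma. The change of Chka was the largest among the measured members and ranked 42 of 6557 genes by size.

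Pcyt1a read 389.6, 468.9 and 452.9 on the high-fat arrays, against 678.7, 592.1 and 721.9 on the low-fat arrays. The diets did not overlap, and the fitted ratio of the low-fat to the high-fat diet was 1.52, but the log2 difference of -0.60 ± 0.17 (SE) did not pass (adjusted p = 0.235 in limma, unadjusted 0.00513). High-fat arrays averaged 437.1 ± 41.9 and low-fat arrays 664.2 ± 66.1 (SD, n = 3 each). The other Pcyt1a probe set read 162.1, 226.7 and 319.1 on the high-fat arrays and 259.7, 238.9 and 442.6 on the low-fat arrays. Those ranges overlapped, array 3 was the highest of each diet, and the log2 difference was -0.41 (adjusted p = 0.815 in limma). That value ranged from -0.654 without high-fat array 3 to -0.133 without low-fat array 3, and was -0.069 with the ratio of the 3′ to the 5′ Gapdh control probe sets as a covariate.

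Pemt, the methyltransferase of the liver's own route, read 4939.1, 4527.0 and 3958.6 on the high-fat arrays, against 6134.2, 5585.1 and 4845.4 on the low-fat arrays. Only high-fat array 1 reached into the low-fat range. High-fat arrays averaged 4475 ± 492 and low-fat arrays 5522 ± 647 (SD, n = 3 each), and the log2 difference of -0.30 ± 0.14 (SE) did not pass (adjusted p = 0.563 in limma). Of the 3 measured genes with a log2 difference below 0, Lpin1 passed the test and Pcyt1a and Pemt did not.

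**Figure D2:**
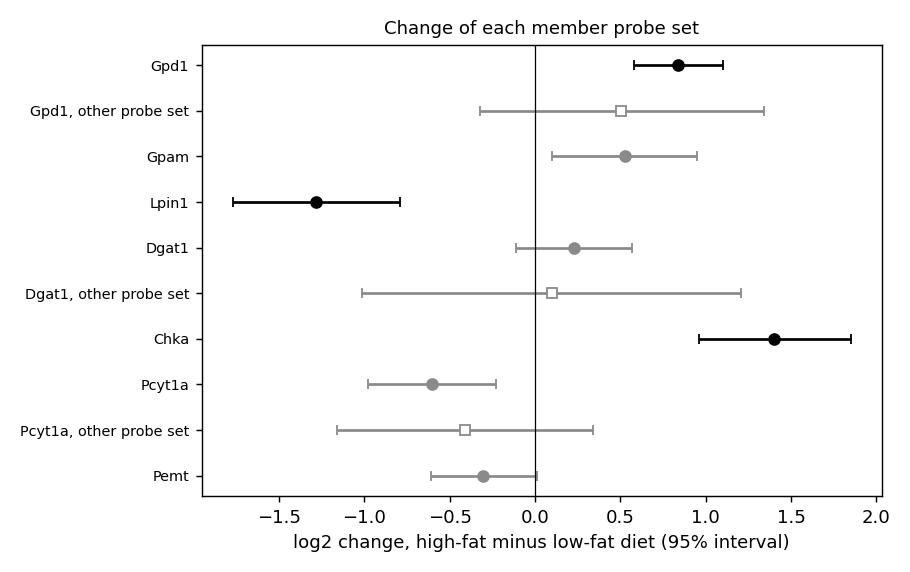
Log2 change on the high-fat minus the low-fat diet (horizontal axis) for each member probe set, with limma's 95% interval; black marks an adjusted p under 0.05, circles the probe set that stands for the gene and open squares the others. The intervals of Gpd1, Chka and Lpin1 lie farthest from 0, and those of Gpam and Pcyt1a also lie to one side of it without an adjusted p under 0.05.

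Whether members of these routes changed unequally was tested on the difference of their log2 values within each array. Of 8 planned pairs 6 could be run, since Chkb and Agpat2 were not measured. The change of Chka exceeded that of Pcyt1a by 2.01 ± 0.23 (SE) and that of Pemt by 1.71 ± 0.17 (SE), on the log2 scale, with no overlap of the diets in either difference. The change of Lpin1 lay below that of Gpd1 by a difference of -2.12 ± 0.20 (SE), below that of Gpam by -1.81 ± 0.28 (SE) and below that of Dgat1 by -1.51 ± 0.29 (SE), again without overlap. Each of these 5 pairs gave p = 0.1 in a two-sided exact permutation test, the smallest that 3 arrays against 3 allow, and 0.12 adjusted over the 6 pairs, so the design cannot take them past the threshold. Gpam and Dgat1 differed in change by 0.30 ± 0.28 (SE), with overlapping arrays (exact permutation p = 0.4). Over the 12 alternatives the 5 non-overlapping differences kept their sign, and the nearest to 0 was -1.308, for Lpin1 minus Dgat1.

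Calls were lost in fits with a single array left out, while the log2 changes kept their direction and rough size. Over all probe sets, calls in those fits ranged from 27 (without low-fat array 2) to 76 (without high-fat array 1), against 74 with all 6 arrays. Whether a lost call reflects the array left out or the smaller number of arrays was not tested. With each array left out in turn, the log2 change ranged from 0.77 to 0.88 for Gpd1, from 1.26 to 1.51 for Chka and from -1.50 to -1.13 for Lpin1. Gpd1 kept an adjusted p under 0.05 in 3 of the 6 fits and lost it without array 2 of the high-fat diet (0.0700) or without array 1 (0.0749) or 2 (0.0748) of the low-fat diet, all in limma. Chka kept its call in 4 of the 6 fits and lost it without either array numbered 2 (0.0574 for the high-fat and 0.0618 for the low-fat one). Lpin1 kept its call in 1 of the 6 fits, without high-fat array 2 (0.0202), and its highest adjusted p was 0.139, without low-fat array 2. Without both arrays numbered 2, a choice made after the data were seen, the log2 changes were 0.79 for Gpd1, 1.49 for Chka and -1.37 for Lpin1. None of these 3 passed (adjusted p = 0.403, 0.330 and 0.229 in limma), and 0 of all probe sets passed in that fit. In that fit 524 probe sets had an unadjusted p under 0.05 in limma. That count is given without its share of those tested and is not read as remaining signal. All 3 calls were also lost in limma without the filter on dim probe sets (adjusted p = 0.0869 for Gpd1, 0.132 for Chka and 0.286 for Lpin1) and without the trend of the variance (0.111, 0.0519 and 0.118). The arrays kept without both numbered 2 still held pancreatic transcripts. Their summed intensities were 4581 and 2343 on high-fat arrays 1 and 3 and 3488 and 2437 on low-fat arrays 1 and 3. The part of pancreatic RNA in these changes was not tested.

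**Figure D3:**
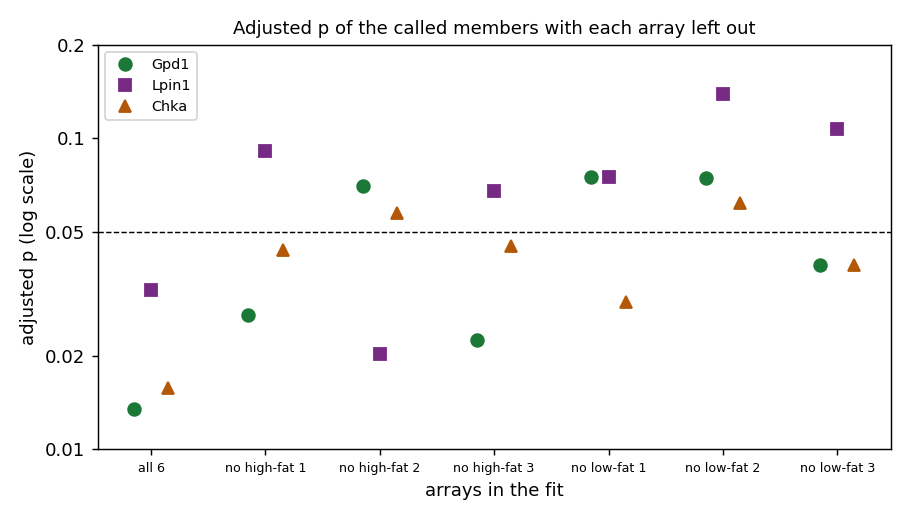
Adjusted p (vertical log axis) of Gpd1, Lpin1 and Chka in limma with all 6 arrays and with each array left out, where the dashed line marks 0.05. Lpin1 lies above the line in 5 of the 6 fits with an array left out, Gpd1 in 3 and Chka in 2.

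The genes around these members were read from lists chosen with earlier results of these data known, which are described by counts and medians only. Of 12 tested genes of triglyceride synthesis, 1 rose (Gpd1), 1 fell (Lpin1) and 10 did not pass, with a median log2 change of 0.08; without the members, 0 of 8 passed and the median was -0.02. Among those 8, Gpd2, the mitochondrial glycerol-3-phosphate dehydrogenase, was read by a probe set marked as possibly shared within a gene family. It had a log2 difference of 0.78 (adjusted p = 0.193 in limma), with readings of 830.6, 1029.8 and 770.9 on the high-fat arrays against 412.5, 645.6 and 487.1 on the low-fat arrays. The diets did not overlap for Gpd2, which was named after its values were seen. Of 8 tested genes of phosphatidylcholine and phosphatidylethanolamine synthesis, 1 rose (Chka) and 7 did not pass, with a median of -0.02; without the members, 0 of 5 passed and the median was 0.04. Chpt1, the cholinephosphotransferase that follows Pcyt1a, and Pcyt2, the ethanolamine counterpart of Pcyt1a, were also named after their values were seen. Chpt1 had a log2 difference of 0.41 (adjusted p = 0.482 in limma), and Pcyt2 had one of -0.15 (adjusted p = 0.822 in limma).

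Of the lists next to these routes, that of triglyceride breakdown had 1 gene of 9 that rose, and 8 did not pass, with a median of -0.09. The gene was Mgll, the monoglyceride lipase, at 1491.1, 1930.4 and 1751.8 on the high-fat arrays against 972.3, 1105.4 and 898.4 on the low-fat arrays. Mgll had a log2 change of 0.80 ± 0.14 (SE) and an adjusted p of 0.0447 in limma, and it kept that call in 1 of the 6 fits with an array left out. Ces1g, a carboxylesterase, had a difference of -0.60 (adjusted p = 0.147 in limma). The lists of phospholipid remodelling, acidic phospholipid synthesis, choline and methyl donor metabolism, fatty acid activation and transcription regulators had 0 calls in limma. Among their 12, 5, 13, 7 and 13 tested genes, 2, 0, 1, 2 and 2 had an unadjusted p under 0.05. Of all genes, 0.915% were called and 9.5% had an unadjusted p under 0.05 in limma. The medians of these lists were -0.17, -0.20, -0.06, 0.23 and -0.12.

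The pair of genes with the smallest p is given for each of those lists. Lpcat3, an acyltransferase that remodels phosphatidylcholine, had a log2 difference of 0.45 (adjusted p = 0.221) and Gpcpd1, which splits glycerophosphocholine, one of -1.37 (adjusted p = 0.402), both in limma. Without low-fat array 3 the value of Gpcpd1 was -0.889. Pipox, which oxidises pipecolic acid and sarcosine, stood at -0.41 (adjusted p = 0.353), and Slc44a1, a choline transporter, at 0.39 (adjusted p = 0.595), both in limma. Cds2, the CDP-diacylglycerol synthase, and Plpp1, a lipid phosphate phosphatase, had differences of -0.48 and -0.20 (adjusted p = 0.801 and 0.894 in limma). With arrays left out in turn these ranged from -0.884 (without high-fat array 1) to -0.258 (without low-fat array 1) for Cds2 and from -0.315 (without high-fat array 2) to -0.034 (without high-fat array 1) for Plpp1. Acsl5 and Slc27a4, which activate or take up fatty acids, stood at 0.41 and 0.80 (adjusted p = 0.238 and 0.465 in limma), and Slc27a4 at 0.481 without low-fat array 1. Among regulators, Srebf1, which drives lipogenic genes, stood at 0.48 (adjusted p = 0.347), and Pparg at 0.83 (adjusted p = 0.512), both in limma. Srebf1 stood at 0.318 without high-fat array 1. The choline transporter gene Slc44a1 stood at 0.255 without low-fat array 1.

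**Figure D4:**
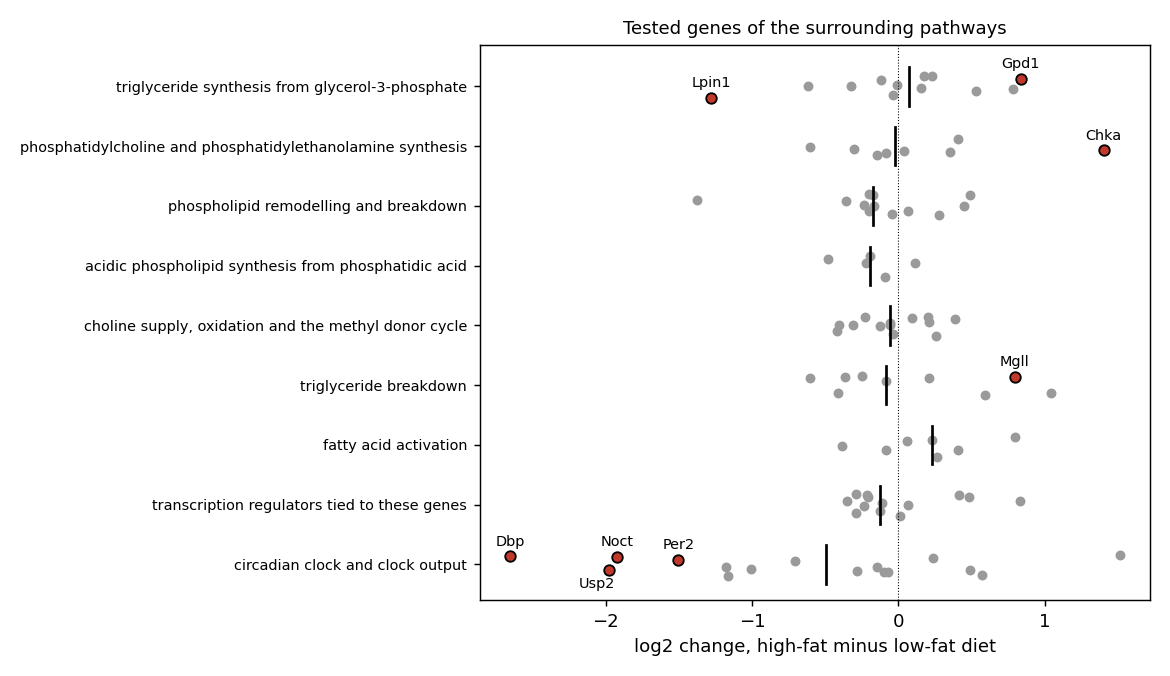
Log2 change on the high-fat minus the low-fat diet (horizontal axis) of each tested gene in the 9 pathway lists, with called genes in red and named, other genes in grey, and the list median as a black bar. Each list median lies between -0.49 and 0.23, and 8 of the 95 tested genes were called, beside 0.915% of all genes.

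Values of other transcripts moved with these results. The clock list had 4 of 16 tested genes lower (Dbp, Usp2, Noct and Per2), beside 0.458% of all genes. The other 12 did not pass, and the list median was -0.49. Dbp read 117.2, 236.6 and 177.3 on the high-fat arrays against 1118.6, 1162.5 and 939.4 on the low-fat arrays. Log2 changes were -1.98 for Usp2, -1.92 for Noct and -1.50 for Per2 (adjusted p = 0.0135, 0.0172 and 0.0287 in limma). With each array left out in turn Dbp passed in 6 of 6 fits, Usp2 in 5, Noct in 3 and Per2 in 1, and with the floor at the 50th percentile Per2 stood at -0.516 (adjusted p = 0.172 in limma). Arntl, a core clock gene named after its values were seen, read 254.7, 274.5 and 354.0 on the high-fat arrays against 82.5, 94.7 and 135.6 on the low-fat arrays. Those ranges did not overlap, and the log2 difference of 1.51 had an adjusted p of 0.0523 in limma. Arntl passed in 8 of the 20 alternatives, among them the threshold of 0.10, and in 0 of the 6 fits with an array left out. With the floor at the 50th percentile it stood at 0.686 (adjusted p = 0.127 in limma). Lpin1 and Chka are known to be rhythmic in mouse liver, and the part of collection time in their change was not tested. The 10 macrophage markers summed to 9267 to 11620 on the high-fat arrays and 6965 to 8841 on the low-fat arrays, without overlap. Of these markers 0 of 10 were called and all 10 were above 0, beside 51.3% of all genes. For 3 of the 10 the diets did not overlap, beside 14.5% of all genes. These were Mpeg1, Tyrobp and C1qa, at log2 differences of 0.895, 0.67 and 0.482 (adjusted p = 0.0742, 0.353 and 0.39 in limma). Without C1qa, the brightest, the other 9 summed to 7528 to 9811 on the high-fat and 5836 to 7147 on the low-fat arrays. The part of macrophage RNA was not tested. The 7 stellate cell and endothelium markers summed to 5692 to 7374 on the high-fat arrays and 5193 to 5385 on the low-fat arrays. That separation came from Dcn, the brightest of them and the 1 that did not overlap: the other 6 summed to 986.6 to 1873 on the high-fat and 1153 to 1327 on the low-fat arrays, and 0 of the 6 tested markers were called, with 4 above 0. The 3 red cell markers overlapped, at 10630 to 13190 against 8328 to 12010. The ratio of the 3′ to the 5′ Gapdh control probe sets, a sign of RNA quality, was 1.22, 1.23 and 0.889 on the high-fat arrays and 1.04, 1.07 and 0.824 on the low-fat arrays. With that ratio as a covariate the adjusted p-values in limma were 0.0142 for Gpd1, 0.0238 for Chka and 0.0238 for Lpin1.

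The genes whose log2 values over the 6 arrays lay nearest to those of Chka, by the root mean square difference after centring each gene on its own mean, were S100a10 (0.144), Isg20 (0.229), Elovl5 (0.230), Crat (0.231) and Tubb5 (0.247). Of these, Elovl5 elongates fatty acids and Crat transfers acyl groups to carnitine. S100a10 read 4078.7, 4837.1 and 5058.0 on the high-fat arrays against 2272.3, 1979.3 and 1764.5 on the low-fat arrays. The low-fat arrays of both S100a10 and Chka were ordered with array 1 highest and array 3 lowest. Their orders differed on the high-fat arrays, where array 1 was the lowest for S100a10 and array 2 for Chka. Isg20 lay under the floor on all 3 low-fat arrays, so its likeness rests on floored values there. The Tubb5 probe set is marked as possibly shared within a gene family.

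Nearest to Lpin1 were Pspn (0.163), Lss (0.255), Rdh11 (0.256), Dhcr7 (0.293) and H2-M9 (0.297). Lss and Dhcr7 encode enzymes of cholesterol synthesis, lanosterol synthase and the reductase of its last step, and Rdh11 encodes a retinol dehydrogenase. The Rdh11 probe set is also marked as possibly shared within a gene family. Lss read 404.0, 389.0 and 253.1 on the high-fat arrays, against 796.6, 774.7 and 842.9 on the low-fat arrays. Of these 5 genes, H2-M9 overlapped between the diets and had a log2 difference of -0.79 (adjusted p = 0.449 in limma). The diets themselves enter this measure of likeness, since it was taken over arrays of both.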

How the data were processed

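Total liver RNA was measured on 6 Affymetrix mouse arrays, 3 per diet, grouped by their titles. The authors deposited 1 linear intensity per probe set, already scaled per array; their software is not given in the sources used here. Of 12488 probe sets, 10855 had 1 gene symbol, 396 several and 1237 were not listed, and 10839 were matched by gene ID to RefSeq (GRCm38.p6), which changed 0 symbols. The scaling was kept. Intensities were floored at 68.9 (30th percentile), log2 was taken, and 8950 probe sets above the floor on at least 3 arrays were tested, without the 66 control probe sets, with limma 3.58.1 in R 4.3.3 (lmFit, eBayes with trend, two-sided, Benjamini-Hochberg, threshold 0.05). The method was run on simulated data, drawn with independent arrays from the variance model of the fit itself. That run does not cover floored values or effects shared by arrays of the same number. The number of arrays limits the precision.

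The brightest tested probe set stood for a gene. The members and lists were chosen with earlier results of these data known. Named were all members, each list's called genes (where fewer than 2 were called, its 2 of smallest p), and the 5 genes nearest to Chka and to Lpin1. Gpd2, Lpin2, Chpt1, Pcyt2, Arntl and single cell type markers were named after their values were seen. Pairs of members were compared with exact permutation tests. Alternatives covered scaling, floor, filter, variance model, weights, block, RNA quality, probe set choice, threshold and left-out arrays.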

Additional observations from a re-analysis of the deposited data

How the results depend on the processing

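Without a filter on dim probe sets, limma called 8 probe sets, 0 members and 0 list genes, of which 4 members and 19 list genes had an unadjusted p under 0.05; without the trend of the variance it called 20 probe sets, 0 members (4 with an unadjusted p under 0.05) and 2 list genes. At an adjusted p of 0.10, 120 probe sets were called against 74 at 0.05. With each array left out in turn, calls ranged from 27 to 76 probe sets, from 0 to 2 members (0 without low-fat array 2, where 4 had an unadjusted p under 0.05) and from 2 to 6 of the list genes, against 74, 3 and 8 with all arrays. Without both arrays numbered 2, chosen after the data were seen, limma called 0 probe sets, 0 members and 0 list genes. In that fit of 4 arrays, 524 probe sets, 4 members and 18 list genes had an unadjusted p under 0.05. Such unadjusted counts, here and in the fits above, are given without the share of all tested probe sets. They do not show that members or list genes stood out. The cause of the other changes was not tested. The second Dgat1 probe set turned its sign with the Gapdh ratio as a covariate (-0.255), without both arrays numbered 2 (-0.082), and with single arrays left out (from -0.275 to 0.621); the second Gpd1 probe set did so without both arrays numbered 2 (-0.037). Lpin2 and Adipoq turned with 1 array left out (from -0.317 to 0.051 and from -0.119 to 0.658). The other genes run under these alternatives kept their direction; they exclude the cell type markers other than Adipoq, Fabp4, Lipe and Dcn. With the array number as a replicate block, 103 probe sets, 3 members and 11 list genes were called. The numbers were not taken as pairs in the main fit, since no label says that a number pairs arrays. Deviations of same-numbered arrays correlated at 0.0712, 0.11 and 0.306 across probe sets. All 3 values are positive and arrays of different numbers were not compared, so they do not settle whether arrays were paired. Quantile or median scaling, other floors, an added constant of 50, all 6 arrays above the floor, robust estimation and array weights each left 3 members called, and the mean over a gene's probe sets left 2. The second Dgat1 probe set was above the floor on 4 of 6 arrays.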
